A study of Mus musculus with 10 samples.

Results

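Macrophages (MFs) that had been kept in interleukin-4 (IL-4) for 24 h were compared with untreated MFs by their chromatin loops, the pairs of genomic places found in contact by Hi-C. The comparison rested on 2 lists of loops, 58260 in the IL-4-treated MFs (IL4) and 53424 in the untreated MFs (CTR). These were 111684 of the 301424 loops that the 5 lists of the series held, and came from 4 of its 10 samples. Both groups were wild type bone marrow-derived MFs from female C57BL/6 mice 2 to 3 months old. The marrow cells had been differentiated for 6 days with M-CSF (macrophage colony-stimulating factor, the growth factor of this lineage) at 20 ng/ml, and the IL4 group had then received IL-4 at 20 ng/ml. The other lists came from MFs given interferon-γ for 3 h (IFNG), MFs rested for 24 h after the same IL-4 exposure (preIL4), and rested MFs then given interferon-γ (preIL4IFNG), and are quoted only beside leading loci. They held 55012 loops in IFNG, 67728 in preIL4 and 67000 in preIL4IFNG. Numbers of loops quoted per gene or bin are not scaled, so those of the longer preIL4 and preIL4IFNG lists overstate their level beside CTR. Hi-C joins DNA ends that lie close together in fixed nuclei after cutting with MboI, so a contact is a joined read pair. A loop here was a pair of 10 kb bins listed by the authors with its number of contacts. Each group had 2 replicate samples that had been merged into 1 list, so no value below has a replicate error, no test between groups was possible, and intervals cover counting error only. In a population of cells, contact in more cells and more frequent contact in each cell cannot be told apart.

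IL-4 is the type 2 cytokine that drives alternative activation of MFs. It binds a receptor whose α chain is encoded by Il4ra, Janus kinases bound to the receptor phosphorylate the transcription factor STAT6, and STAT6 dimers bind a palindrome, TTC and GAA with 4 bases between them, near target genes such as Arg1, which encodes the arginine-degrading enzyme arginase 1. Many chromatin loops are held by cohesin at sites of the zinc finger protein CTCF, and others bring enhancers to promoters.

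CTCF-like sequences from 3 of the 8 bins of 10 kb with the largest net gain of loops are shown first, because the directed CTCF site is the sequence best known to anchor loops. The CTCF-like pattern, CCA, any 2 bases, AG, any 2 bases and GGC, was searched on both strands of the mouse assembly GRCm38.p6, and each line below gives the bin, the place of a match and the match in capitals with 4 flanking bases on each side, read 5′ to 3′ on the strand of the match. The first and second matches lie in a bin with no protein-coding gene that went from 0 loops in CTR to 24 in IL4, the third lies in Mrc2 in a bin that went from 6 to 22, and the fourth lies in Kcnj4 in a bin that went from 0 to 14. The Kcnj4 bin also had 14 loops in IFNG, 14 in preIL4 and 15 in preIL4IFNG, so CTR alone was at 0. The bins of these matches rank 1, 3 and 5 by net gain. The bins of rank 2 (in Tpcn2, 0 to 19 loops), 4 (in Qrich2, 0 to 15) and 6 (near Klf4, 0 to 12) hold 0 matches, and those of rank 7 and 8 hold 2 each.
Intergenic first, chr10:96214042-96214061, plus strand: tccgCCAGCAGAGGGCactg
Intergenic second, chr10:96217767-96217786, plus strand: tgagCCATCAGCTGGCtact
Mrc2, chr11:105332663-105332682, plus strand: cctaCCAGCAGATGGCacca
Kcnj4, chr15:79486187-79486206, plus strand: cataCCAGAAGAGGGCataa
The locus of F7, F10 and Proz, described below, had the largest log2 ratio by gene, at Cul4a. Matches from 3 of its bins, chosen among those that gained loops, are printed as examples: the bin at the end of F10 went from 0 to 2 loops, the bin in Pcid2 from 0 to 5 and the bin in Cul4a from 0 to 5. Matches did not mark gains alone, since a bin of the same locus at chr8:13150001-13160000 with 0 loops in both lists holds 3 and the bin at chr8:13210001-13220000, which went from 3 loops to 1, holds 4.
Bin at F10, chr8:13059791-13059810, minus strand: atgcCCAGCAGATGGCcaac
Pcid2, chr8:13093307-13093326, minus strand: gcagCCACCAGAGGGCaatt
Cul4a, chr8:13132419-13132438, minus strand: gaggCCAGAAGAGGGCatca
A match of this kind is common. It was present in 37.8% of all 255946 genomic bins of 10 kb, in 61.2% of the anchor bins of loops shared by both lists, in 55.3% (95% Wilson interval 54.4 to 56.1) of the anchor bins of gained loops and in 53.3% (52.3 to 54.2) of the anchor bins of lost loops. This STAT6 pattern was found in 93.6% of the anchor bins of gained loops, 93.7% of those of lost loops, 92.0% of those of shared loops and 95.3% of all bins, so that a 10 kb bin without it was rare in any class. The EGR letters GCGTGGGCG were in 1.23% of gained, 1.08% of lost and 1.53% of shared anchor bins against 0.65% of all bins.

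Most loops had a match within 25 kb in the other list. A loop was matched when the other list held a loop with both anchors within 25 kb, which at this bin size means at most 2 bins away. IL-4-treated MFs had 7897 loops with no CTR match (gained loops), 13.6% of their list (13.28 to 13.84), and CTR had 5757 loops with no IL4 match (lost loops), 10.8% of its list (10.52 to 11.04). These shares depend on the rule of matching. At the same bins 55.5% of IL4 and 51.5% of CTR loops had no match. With touching bin pairs counted as 1 loop, 40.3% and 35.4% had none within 25 kb. Gained and lost loops both spanned longer distances and had fewer contacts than shared loops. The median distance between anchors was 240 kb for gained and 290 kb for lost loops against 160 kb for shared loops, and 25.3% of gained and 30.2% of lost loops reached 500 kb or more against 8.9% of the shared IL4 loops. Median contacts were 23 for gained, 20 for lost and 33 for shared loops. With each count divided by the median count at the same distance in the same list, here called strength, gained loops had a median of 0.909 and lost loops 0.9. The share of IL4 loops without a match fell from 23.7% in the weakest 10% of the list by strength to 1.73% in the strongest 10%, and that of CTR loops from 19.5% to 0.861%.

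**Figure D1:**
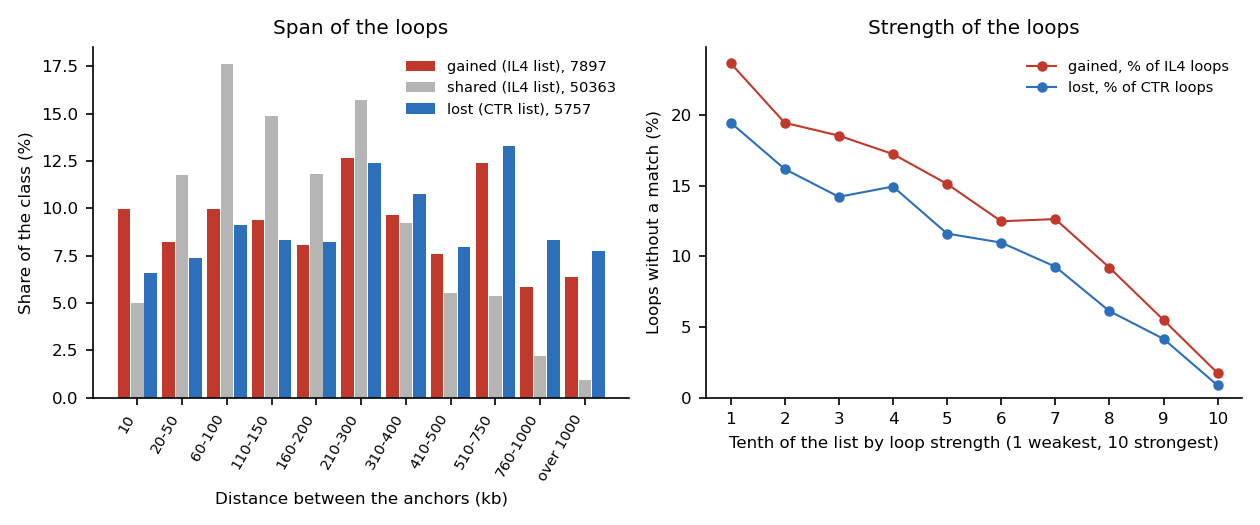
Left, the share (%) of gained, shared and lost loops by distance between anchors in kb. Right, the share (%) of each list without a match in the other, by loop strength in steps of 10% of the list. Gained (7897) and lost (5757) loops both lie toward long distances, where shared loops are few, and both classes are drawn mainly from the weaker loops, with 1.73% and 0.861% of the strongest 10% unmatched.

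Loops between neighbouring bins made up 9.95% of gained loops (9.31 to 10.6) and 6.57% of lost loops (5.95 to 7.24), against 4.98% of shared IL4 loops and 4.69% of shared CTR loops. Promoters were not over-represented among the loops that changed. Of loops spanning 20 to 490 kb, both anchors held a transcription start site (TSS) of a protein-coding gene in 3.48% of gained loops (3.01 to 4.02), 4.42% of lost loops (3.8 to 5.14) and 4.46% of shared IL4 loops (4.27 to 4.66). Where the same pair of bins was listed in both groups, contacts hardly moved. Over 25933 such pairs there were 1235378 contacts in IL4 and 1236537 in CTR, a ratio of 0.999 (0.997 to 1.002), and 22 pairs were at least 2-fold higher in IL4 and 12 at least 2-fold lower. These pairs were 44.5% of the IL4 list and 48.5% of the CTR list, and their contacts were not scaled for depth. A pair listed in only 1 group has no count in the other, so this selection leaves out pairs that changed enough to drop from a list.

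The gained and lost loops with the highest strength were examined singly. The first gained loop, 70 kb long with 120 contacts in IL4 (99.5 to 143), joined the bin of the TSS of Adam8, a cell surface metalloprotease, to a bin in Caly, and it was in none of the other 4 lists. The Caly bin was an anchor of 0 CTR loops and 5 IL4 loops. A gained loop with 23 contacts (14.6 to 34.5) joined Mrc2, the collagen-binding mannose receptor family member Endo180, to Ace, which encodes angiotensin-converting enzyme, 670 kb away. A loop with 37 contacts ending at the TSS of Zmiz1, a transcriptional co-regulator, was also listed in IFNG with 25, in preIL4 with 30 and in preIL4IFNG with 25, and a loop with 42 contacts ending at the TSS of Zfp703 was listed in preIL4 with 32. Of the strongest lost loops, 1 with 28 contacts in CTR joined Tbc1d1 to Klf3, which encodes a repressor of the Krüppel-like family, and was listed again in preIL4IFNG with 18. The loop from Cspg4 to Ptpn9 had 51 contacts in CTR, 49 in IFNG and 46 in preIL4IFNG and was in neither the IL4 nor the preIL4 list.

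Genes were then linked to loops with an anchor within 100 kb of the TSS, and loops were scaled by the length of the list. Of 21728 protein-coding genes, 11839 had at least 10 loops over both lists. IL-4-treated MFs had at least 2-fold more loops near 324 genes, 2.74% of those 11839, and at least 2-fold fewer near 259 genes, 2.19%. These calls were made on a log2 scale with 1 added to each scaled number. Folds of scaled loops given below, and their intervals, leave out the added 1 and so differ from the log2 ratios beside them. Without scaling for the lengths of the lists, whose ratio is 0.13 on the log2 scale, the counts were 520 and 209. With the IL4 list cut to the length of the CTR list by strength they were 349 and 370, so which direction held more genes depended on how list length was treated. Neighbouring genes share loops, and the called genes fell into 134 loci with more and 115 loci with fewer loops. The calls, 4.92% of measured genes in either direction, were concentrated where loops were few, since 14.8% of genes with 10 to 19 loops were called, 4.71% with 20 to 39, 1.58% with 40 to 79 and 0.49% with 80 or more. The same rule called 3.09% of genes higher and 2.01% lower, 5.1% in all, in IFNG against the same CTR list.

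**Figure D2:**
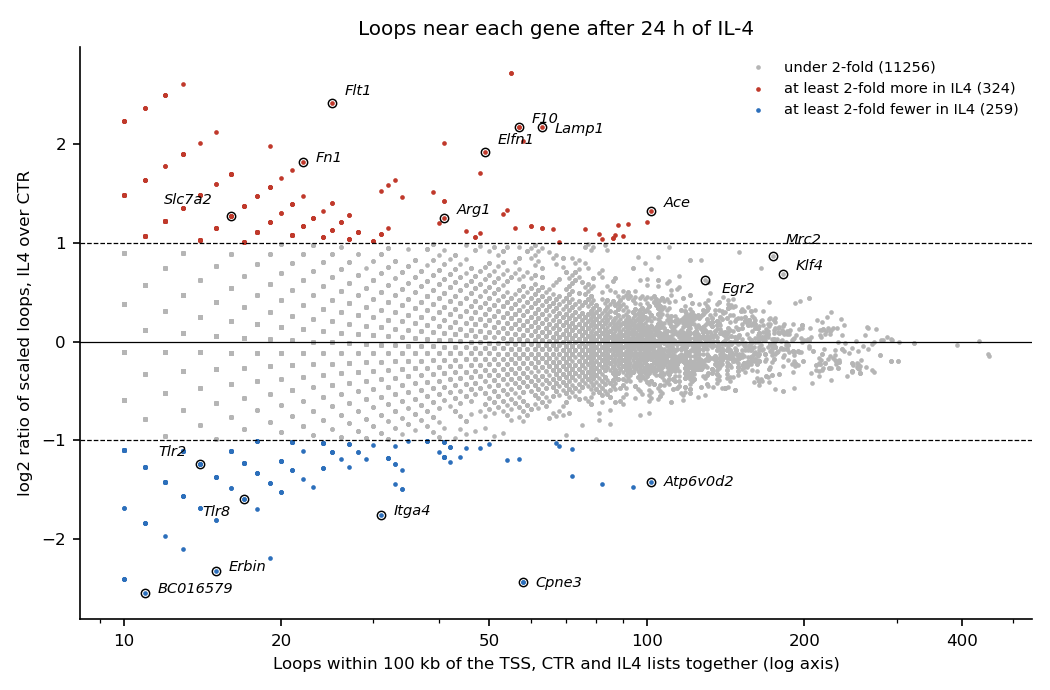
The log2 ratio of scaled loops near each of 11839 genes, IL4 over CTR, against the number of loops in both lists together on a log axis. Red and blue points are the 324 and 259 genes past 2-fold (dashed lines), and circles mark named genes. F10, Lamp1 and Ace stand above and Atp6v0d2 and Cpne3 below genes with similar numbers of loops.

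The largest log2 ratio upward was in the locus of the coagulation genes on chromosome 8, while Mrc2, Megf11, Ace and Klf4, described below, added more loops by number. F7 (chr8:13026034-13035809) and F10 (chr8:13037308-13056676) encode coagulation factors VII and X, and Proz encodes protein Z, the cofactor for inhibition of factor X. F10 had 9 loops in CTR and 48 in IL4, against 4 in IFNG, 35 in preIL4 and 18 in preIL4IFNG. F7 went from 9 to 48 loops and Proz from 10 to 48, both counting largely the same loops as F10. Both lists made after IL-4 and before interferon-γ were thus high, both lists without IL-4 were low, and preIL4IFNG was between them. The log2 ratio for F10 was 2.18, a 4.89-fold change in scaled loops (2.37 to 11.3). Cul4a, a ubiquitin ligase scaffold, led the locus with 6 loops in CTR and 49 in IL4 (log2 ratio 2.72), and Lamp1, a lysosomal membrane glycoprotein, had 10 and 53 (2.18). In the 90 kb at chr8:13010001-13100000, where F7, F10 and Proz lie, loops had 0 anchors in CTR and 1 in IFNG, against 30 in IL4 spread over all 9 bins, 16 in preIL4 and 4 in preIL4IFNG. The bins just outside this window on both sides had CTR anchors, so the 0 in CTR followed from where it was drawn. The median distance between the anchors of the 48 IL4 loops near F10 was 110 kb. Of those 48 loops, 26 had an anchor in a bin with at least 5 loops in IL4 and none in CTR, and without all such bins the log2 ratio for F10 was 1.10. Touching bin pairs counted as 1 loop gave 6 loops in CTR and 13 in IL4, under 2-fold at a log2 ratio of 0.89.

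The promoters of F10 and F7 are printed because both genes lie in the block of new anchors, from 250 bases before to 50 after the RefSeq start on GRCm38.p6, both on the plus strand, at chr8:13037058-13037357 for F10 and chr8:13025784-13026083 for F7.
F10: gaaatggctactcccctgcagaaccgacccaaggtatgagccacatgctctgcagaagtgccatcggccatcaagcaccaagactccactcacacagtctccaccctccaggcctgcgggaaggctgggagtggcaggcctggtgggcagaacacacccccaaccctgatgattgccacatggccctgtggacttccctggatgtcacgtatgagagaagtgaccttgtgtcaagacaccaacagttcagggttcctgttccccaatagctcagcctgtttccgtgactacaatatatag
F7: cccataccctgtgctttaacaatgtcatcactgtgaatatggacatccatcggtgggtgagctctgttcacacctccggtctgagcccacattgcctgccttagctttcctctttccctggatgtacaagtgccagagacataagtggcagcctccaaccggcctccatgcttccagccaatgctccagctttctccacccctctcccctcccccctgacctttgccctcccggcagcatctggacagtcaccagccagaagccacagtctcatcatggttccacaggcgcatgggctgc
Neither holds the STAT6 pattern, which was in 6.99% of 32619 RefSeq promoters of this length, nor TTCNNNGAA, the related STAT letters, which were in 8.34%. RefSeq promoters were at hand for 44 of 70 genes described at loci, and 29 of these were past 2-fold. Among those 29, Tlr8 held the STAT6 pattern, and Tlr8, Elfn1 and Nup107 held TTCNNNGAA.

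Of 12 measured genes of arginine and polyamine metabolism, 2 had at least 2-fold more loops and 0 fewer, against 2.74% and 2.19% of all measured genes. Arg1 (chr10:24915221-24927484) had 11 loops in CTR and 30 in IL4, with 15 in IFNG, 16 in preIL4 and 24 in preIL4IFNG. The IL4 list had the most loops of the 5 and CTR the fewest. The log2 ratio was 1.25, 2.5-fold in scaled loops (1.22 to 5.53). The IL4 loops had a median distance of 270 kb between anchors, and 28 of the 30 had a CTR loop within 25 kb, so that most of the added loops lay beside loops already listed in CTR. The 7 bin pairs listed in both groups near Arg1 had 168 contacts in CTR and 220 in IL4, a log2 ratio of 0.39 (0.09 to 0.69). With touching pairs merged Arg1 had 4 and 6 loops and was not past 2-fold (0.39). Slc7a2, which encodes the cationic amino acid transporter CAT2, had 4 loops in CTR and 12 in IL4 (1.27), and 4, 4 and 5 in the other lists, with 9 of the 12 gained. Of 11 alternative settings, Arg1 was past 2-fold with at least 10 loops in 9 and Slc7a2 in 6. The other 10 measured genes did not pass, among them Odc1, the rate-limiting enzyme of polyamine synthesis, with 17 loops in each list, and Nos2, which makes nitric oxide from arginine, with 51 and 48. The list's median log2 ratio was -0.10, against -0.01 over all genes measured.

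**Figure D3:**
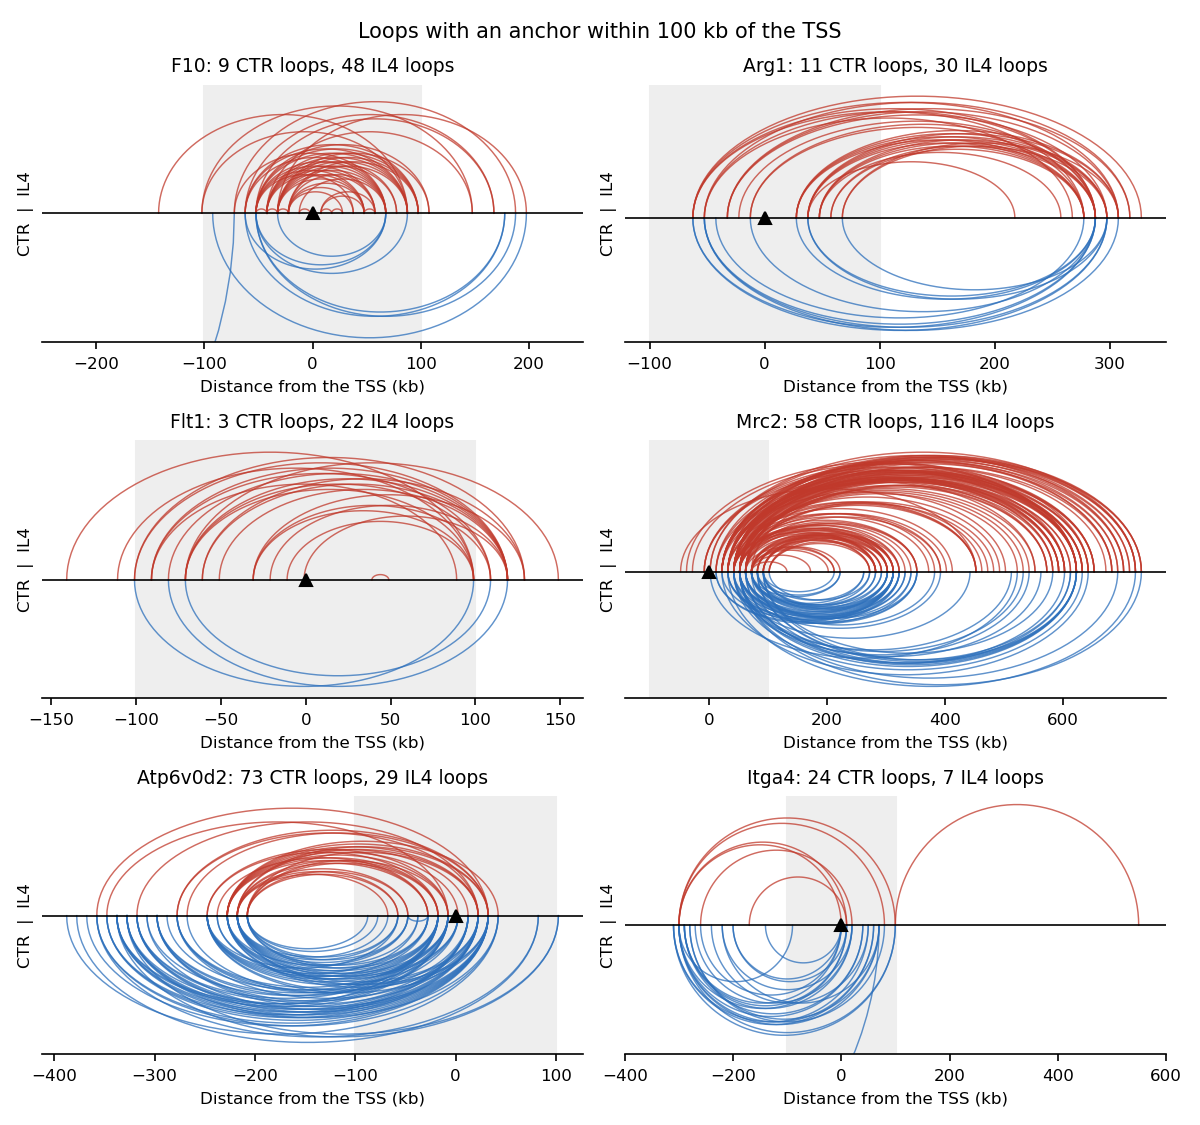
Loops with an anchor within 100 kb (grey) of the TSS (triangle) of 6 genes, by distance from the TSS in kb; arcs above the line are IL4 loops and arcs below are CTR loops, drawn as wide as the distance between anchors. Loops were added within the F10 locus (9 to 48), along existing contacts of Arg1 (11 to 30), round Flt1 (3 to 22) and over long distances from Mrc2 (58 to 116), and were fewer at Atp6v0d2 (73 to 29) and Itga4 (24 to 7). In the F10 and Itga4 panels 1 long CTR loop runs off the edge.

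Of the alternative activation markers, 20 of 24 had enough loops, 2 were at least 2-fold higher and 0 lower, against 2.74% and 2.19% of all measured genes, and the list's median was 0.25. That median was 0.065 with a window of 200 kb, 0.069 with touching pairs merged, 0.093 at equal list length and at most 0.43 under the other alternatives. Flt1, the receptor VEGFR1 (chr5:147561604-147726011), had 3 loops in CTR and 22 in IL4 (log2 ratio 2.42, 6.72-fold, 2.02 to 35.1). It also had 17 in IFNG, 9 in preIL4 and 22 in preIL4IFNG, so that CTR was the lowest list and IL4 did not stand apart from both lists with interferon-γ. Fn1, which encodes the matrix protein fibronectin, had 4 loops in CTR, 18 in IL4, 5 in IFNG, 17 in preIL4 and 14 in preIL4IFNG (1.82). All 3 lists with IL-4 were above the other lists. The neighbouring Abca12, a lipid transporter, went from 1 to 10 loops (2.37), all of 500 kb or more and other than those counted for Fn1. Of the best known IL-4 target genes, Chil3, Chil4 and Retnla had too few loops to be measured. Chil3 and Chil4, which encode chitinase-like proteins, had 1 loop in CTR and 0 in IL4, and Retnla, which encodes the secreted protein RELMα, had 0 in both. Mrc1, the mannose receptor CD206, was measured and had fewer loops in IL4, with 21 in CTR and 14 in IL4 (-0.67). Ccl17 and Ccl22, chemokines of type 2 responses, were measured and also had fewer, with 10 and 7 and 12 and 9.

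Between Mrc2 and Ace, long loops were added. Mrc2 (chr11:105292643-105351139) had 58 loops in CTR and 116 in IL4, and 83, 78 and 90 in IFNG, preIL4 and preIL4IFNG (log2 ratio 0.86, 1.83-fold, 1.33 to 2.56). Its loops of 500 kb or more went from 16 to 61, and without loops of that length its log2 ratio was 0.26. Ace, at the other end of these loops, went from 27 to 75 loops (1.32), of which 13 and 58 were of 500 kb or more. The bin chr11:105330001-105340000 in Mrc2, which holds the third CTCF-like sequence above, was an anchor of 6 loops in CTR, 22 in IL4, 15 in IFNG, 15 in preIL4 and 16 in preIL4IFNG. With touching pairs merged, the log2 ratio of Ace turned to -0.23, and 62 of its 75 IL4 loops had a CTR loop within 25 kb.

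No transcription factor of the IL-4 response list was past 2-fold. Of 19 measured members 15 were above 0, against 5757 of all 11839 measured genes, with a median of 0.21 against -0.01, and that median lay between 0.19 and 0.33 under every alternative run. Egr2, which acts downstream of STAT6, had 48 loops in CTR and 81 in IL4, with 48 in IFNG, 64 in preIL4 and 77 in preIL4IFNG (0.62). Klf4, a Krüppel-like factor of alternative activation, had 66 and 116 (0.68), and 92, 105 and 107 in the other lists. Its loops of 500 kb or more went from 51 to 97, and the log2 ratio without them was 0.20. Myc had 29 and 52 (0.70), of which 26 were gained, and Pparg, the lipid-activated nuclear receptor, had 20 and 25 (0.19). At Nfil3 and Bhlhe40 the contacts themselves were higher. Nfil3, a basic leucine zipper repressor, had 43 and 68 loops (0.53), and 22 bin pairs listed in both groups had 595 contacts in CTR and 744 in IL4, a log2 ratio of 0.32 (0.16 to 0.48). Bhlhe40, a basic helix-loop-helix repressor, had 34 and 53 loops (0.50), and 21 common bin pairs had 522 and 651 contacts, again 0.32 (0.15 to 0.49). Loops that ended in the bin of the TSS itself went from 7 to 12 at Nfil3 and from 6 to 11 at Bhlhe40. Of 5955 genes with at least 10 common bin pairs, 5% were below -0.11 and 5% above 0.12, within a range from -0.26 to 0.45. Maf, at 46 and 37 loops (-0.43), Mitf, at 20 and 16 (-0.42), Bhlhe41 and Kdm6b were the members below 0.

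The receptor and its signalling genes did not pass in either direction. Il4ra had 32 loops in CTR and 27 in IL4, with 36, 43 and 42 in IFNG, preIL4 and preIL4IFNG (-0.36), so IL4 was the lowest of the 5 lists. Its 16 common bin pairs had 790 contacts in CTR and 707 in IL4, a log2 ratio of -0.16 (-0.31 to -0.01), and loops at its TSS bin went from 5 to 1. Stat6 had 46 and 54 loops (0.10), Jak1 8 and 9, Jak3 36 and 39, and the feedback inhibitor Socs1 89 and 109 (0.17). Irs2, the adaptor that links the receptor to phosphoinositide 3-kinase, had the largest ratio of the list with 26 and 39 loops (0.45). The median over 13 measured genes was 0.09, and 10 were above 0.

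**Figure D4:**
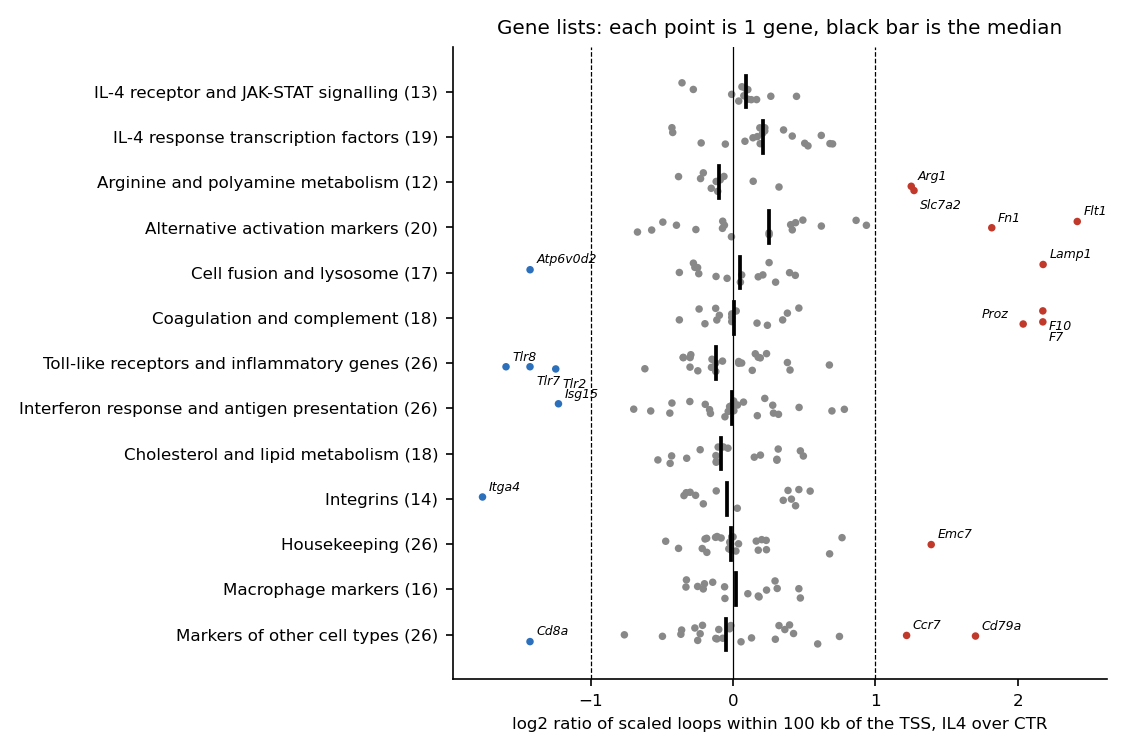
Each point is 1 gene with at least 10 loops, placed by its log2 ratio of scaled loops (IL4 over CTR), and each black bar is the median of a list. Red and blue points are past 2-fold (dashed lines) and named. The medians lie between -0.12 and 0.25, and the F7, F10, Proz and Lamp1 points share a single locus.

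Single members of the fusion, integrin and innate sensing lists had at least 2-fold fewer loops. Atp6v0d2 (chr4:19876841-19922605), a subunit of the lysosomal proton pump known for its part in MF and osteoclast fusion, had 73 loops in CTR and 29 in IL4, against 34 in IFNG, 68 in preIL4 and 40 in preIL4IFNG. CTR and preIL4 were high and the lists taken directly after a cytokine were low. The log2 ratio was -1.42, a 0.364-fold level (0.228 to 0.567). Cpne3, which encodes the calcium-dependent membrane-binding protein copine 3, lies on the other side of these loops and went from 49 to 9 (-2.44, 0.168-fold, 0.0727 to 0.346), with 14, 38 and 17 in IFNG, preIL4 and preIL4IFNG. In the 180 kb at chr4:19530001-19710000 loops had 68 anchors in CTR, 26 in IL4, 27 in IFNG, 62 in preIL4 and 35 in preIL4IFNG. The 21 bin pairs near Atp6v0d2 that stayed listed had 758 contacts in CTR and 726 in IL4 (-0.06, -0.21 to 0.09), and with touching pairs merged Atp6v0d2 and Cpne3 were under 2-fold, at -0.88 and -0.84. The fusion and lysosome list had 1 gene up, Lamp1, and 1 down among 17 measured, against 2.74% and 2.19% of all measured genes, and a median of 0.05. Dcstamp, the fusion receptor, had 30 and 27 loops.

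Itga4 (chr2:79255426-79333123), the α4 subunit of the integrins that bind VCAM-1 and fibronectin, had 24 loops in CTR and 7 in IL4, but 26 in IFNG, 19 in preIL4 and 23 in preIL4IFNG. IL4 alone was low. The log2 ratio was -1.76 (0.267-fold, 0.0973 to 0.64), loops at its TSS bin went from 4 to 1, and it was past 2-fold under all 11 alternatives run for named genes. The other 13 measured integrins did not pass, and over all measured genes 2.19% were at least 2-fold lower. Itgam and Itgax, the neighbouring α chains of CD11b and CD11c, had 41 and 62 (0.46) and 41 and 61 (0.44), and shared most of those loops.

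Of 26 measured Toll-like receptor and inflammatory genes, 3 were at least 2-fold lower and 0 higher, against 2.19% and 2.74% of all measured genes, and 2 of the 3 share loops. Tlr2, which senses bacterial lipoproteins, had 10 loops in CTR, 4 in IL4, 15 in IFNG, 9 in preIL4 and 7 in preIL4IFNG (-1.24). Tlr7 and Tlr8, neighbouring sensors of single-stranded RNA, had 9 and 3 (-1.43) and 13 and 4 (-1.59), and share loops on chromosome X, where the lists held only 150 loops in CTR and 142 in IL4. Their counting intervals are wide, 0.084 to 1.27 for the fold of Tlr2 and 0.067 to 0.913 for Tlr8, and with a window of 25 kb Tlr7 was at -0.06. The Tlr8 promoter (chrX:167264280-167264579, minus strand, RefSeq on GRCm38.p6) is printed because it alone among the 29 promoters at hand of genes past 2-fold held the STAT6 pattern, with its match and a TTCNNNGAA match in capitals.
Tlr8: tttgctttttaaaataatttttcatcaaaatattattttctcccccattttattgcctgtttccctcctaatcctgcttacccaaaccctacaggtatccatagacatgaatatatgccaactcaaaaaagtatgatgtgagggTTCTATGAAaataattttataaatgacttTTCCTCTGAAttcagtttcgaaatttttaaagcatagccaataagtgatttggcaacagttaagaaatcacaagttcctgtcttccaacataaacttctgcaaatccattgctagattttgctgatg
Tnf had 58 and 57 loops (-0.15), Il1b 29 and 29, Ccl2 28 and 28, and Tnfaip3, the inhibitor of NF-κB, 18 and 32 (0.68). The median of the list was -0.12. Of 26 measured interferon and antigen presentation genes only Isg15 passed, from 12 to 5 loops (-1.23), against 2.19% lower and 2.74% higher over all measured genes. Gbp2 and Gbp5, guanylate-binding proteins of the interferon-γ response, had 11 and 7 and 14 and 15 loops, against 37 and 47 in IFNG. Ciita, the master regulator of MHC class II, had 55 and 73 (0.28). None of 18 measured cholesterol and lipid genes passed (median -0.09), including Abca1, the cholesterol exporter, at 48 and 36 (-0.53). C3 of the coagulation and complement list had 52 and 53 loops, and outside the F7 locus none of the 15 other measured members of that list passed.

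Of the loci with the largest ratios, most rested on few loops. Asap1, a GTPase-activating protein of the cytoskeleton, went from 1 to 12 loops (2.61) and Eya2, a transcriptional co-activator, from 1 to 11 (2.50), as did Gm10097. Fam198a, Gm21985, Sh2d2a and Xpnpep2 went from 1 to 9 or 10. On the other side BC016579 went from 10 to 1 (-2.55), Erbin, a scaffold of ErbB2, from 13 to 2 (-2.32), Slc39a12, a zinc transporter, from 16 to 3 (-2.19), Slc16a1, the lactate transporter MCT1, from 11 to 2 (-2.10), and Fabp1 and Svopl from 9 to 1. Larger in number were Elfn1, from 9 to 40 (1.92), Megf11, from 49 to 101 (0.91), and Ddx17, an RNA helicase, from 26 to 66 (1.19), with 24 of the 66 in bins that had no CTR loop. Ddx17 also had 47 loops in IFNG, 68 in preIL4 and 70 in preIL4IFNG, so CTR was the lowest list. With touching pairs merged Ddx17 turned to -0.036. Megf11 also had higher contacts at its 36 common bin pairs, 1047 in CTR and 1262 in IL4 (0.27, 0.15 to 0.39). Elfn1, Megf11, Ddx17 and Ace were named for the difference in number after their values were seen.

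Some of the gains came from bins that were anchors in 1 list and absent from the other. Of 7146 bins with at least 5 loops in IL4, 99 (1.39%) had none in CTR, and of 6410 bins with at least 5 loops in CTR, 36 (0.562%) had none in IL4. The leading bin, chr10:96210001-96220000, had 0 loops in CTR and IFNG, 24 in IL4, 25 in preIL4 and 23 in preIL4IFNG, so that all 3 lists with IL-4 had it and neither list without. Its neighbours differed little, with 3 and 4 loops in CTR against 4 and 2 in IL4. The bin chr7:145230001-145240000 in Tpcn2, which encodes a lysosomal ion channel, had the same order, with 0, 0, 19, 24 and 18. The bin chr11:116450001-116460000 in Qrich2 had 15 loops in IL4 and 0 in the other 4 lists, while the bins beside it had 12 and 11 loops in CTR and 11 and 10 in IL4. The bin chr4:55480001-55490000, 47.5 kb from the TSS of Klf4, had 0 in CTR, 12 in IL4, and 5, 5 and 6 in the other lists. Of the 99 bins 36 were also empty in IFNG, and 12 of those had at least 5 loops in both rested lists. The 99 bins held a median of 29 GATC sites, the letters MboI cuts, against 25 in the 36 bins of CTR and 25 in the 4730 bins with at least 5 loops in both lists. The part of cutting sites, mapping and normalization of single bins in these gains was not tested. Of the 7897 gained loops 149 (1.89%) had an anchor in the 99 bins.

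**Figure D5:**
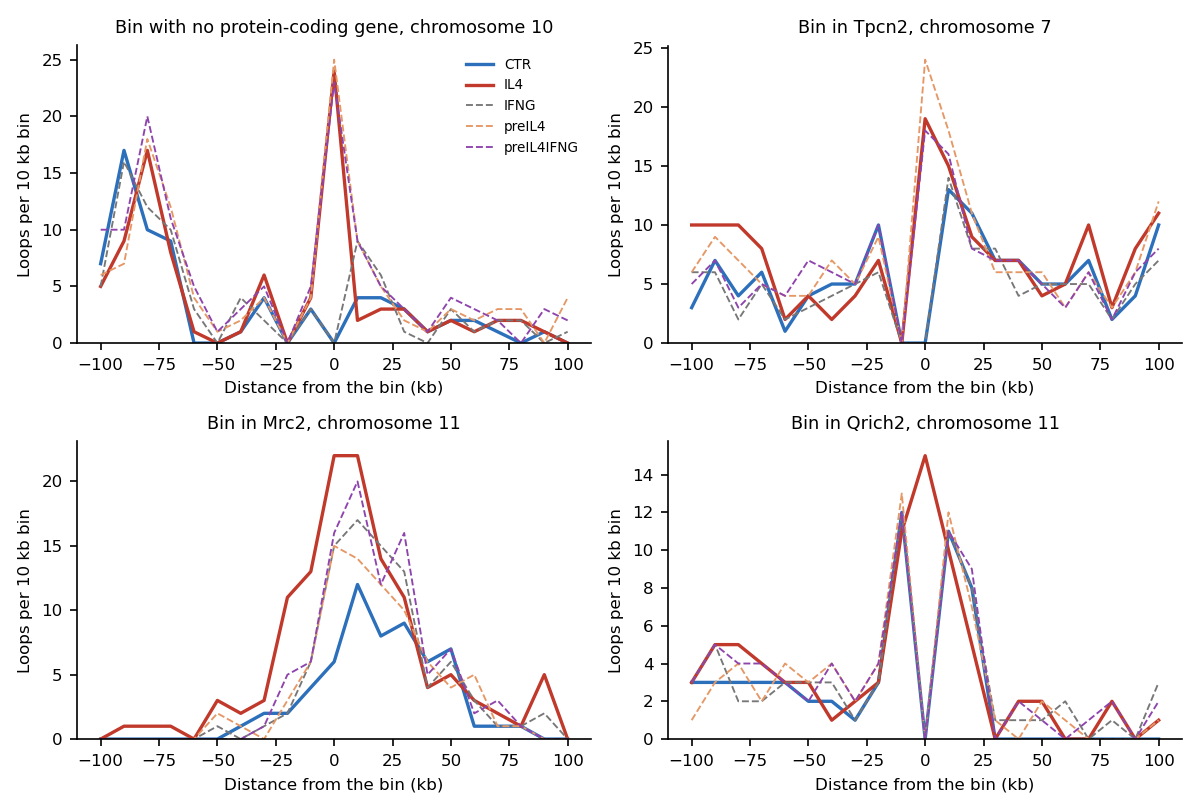
Loops per 10 kb bin in each of the 5 lists within 100 kb of the 4 bins with the largest net gain, by distance in kb. In the chromosome 10 and Tpcn2 panels the 3 lists with IL-4 peak at the bin and CTR and IFNG are at 0; in the Mrc2 panel IL4 is highest at the bin with 22 loops, while CTR has 6 there and 12 in the next bin; in the Qrich2 panel IL4 alone is above 0 at the bin between neighbours that are alike.

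The cell type was checked by loops near marker genes. All 16 MF markers had at least 10 loops over both lists, with a median of 35.5 in CTR and 37.5 in IL4, among them Spi1, the lineage factor PU.1, with 46 and 54, and Csf1r, the M-CSF receptor, with 22 and 30. None passed 2-fold. Markers of other cell types had a median of 12 and 15 loops, against 6 and 7 over all genes, and summed to 605 and 654. Members of that list ran from 0 to 61 loops in CTR and from 1 to 62 in IL4. Pax5 and Fcer1a, markers of B cells and mast cells, were at its low end with 0 in CTR and 1 in IL4. Of 26 measured, Cd79a (3 to 13) and Ccr7 (3 to 9) were higher and Cd8a (9 to 3) lower. Cd8a fell in the same locus as Fabp1, though the loops counted for them were not the same set. Over all measured genes 2.74% were higher and 2.19% lower. Ccr7 turned to -0.058 with a window of 200 kb and to -0.50 with touching pairs merged. Loops near a gene do not show that it is expressed, and what these markers have to do with the other results was not tested. Of 26 measured housekeeping genes 1 passed, Emc7 (5 to 16), against 2.74% higher over all measured genes, and the median was -0.01.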

How the data were processed

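Hi-C was made with MboI on 2 samples each of untreated and IL-4-treated MFs. Per the labels, the submitters' processing used FastQC, Bowtie2, HiC-Pro, Juicer and HOMER on mm10. The replicates were merged into 1 deposited loop list per group, in which the authors gave each 10 kb bin pair a raw count of contacts. The study's methods name the loop caller HICCUPS, at a coarser resolution than the 10 kb of these lists. The caller and threshold behind the 10 kb lists themselves are not given in the sources used here. The study's own differential test of contacts needs values per replicate, which were not analysed here.

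Both lists were read as deposited, matched with Python 3.11.15, pandas 2.3.3 and scipy 1.17.1, and linked to protein-coding genes of GENCODE M21 (window 100 kb, pseudocount 1, at least 10 loops, 2-fold). Totals were 2174945 contacts in CTR and 2416249 in IL4, with a median of 32 per loop in both. Shares have Wilson intervals, contacts Poisson intervals, and ratios of loops or contacts exact conditional intervals, all at 95%. They cover counting error only, and loops in neighbouring bins are not independent. Matching and gene counting were tested on simulated data. Named genes were list members past 2-fold, the leads of the 12 loci with the largest ratio in each direction (genes within 200 kb being 1 locus), genes at the 8 strongest gained and lost loops and the 8 bins of largest net gain or loss, a few list members that did not pass, and genes the study singles out. Other genes were named after their values were seen. Members, gene lists and rankings were chosen with earlier results of these data known. The alternatives tried are given with their effect in the closing section.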

Additional observations from a re-analysis of the deposited data

Results flagged for a closer look

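Outside the main measurement, each list held 1 pair of bins on the mitochondrial genome, which had 105 contacts in CTR and 167 in IL4, a ratio of 1.59 (1.24 to 2.05), and 163 in IFNG, 155 in preIL4 and 220 in preIL4IFNG.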

How the results depend on the processing

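No paired analysis was possible because the replicates of each group were merged into 1 list before deposit, which also means that no replicate could be left out. Matching at the same bins gave 32326 gained and 27490 lost loops, and matching within 50 kb gave 3695 and 2517. With touching pairs merged 8313 loops were gained and 6723 lost, 40.3% and 35.4% of the merged lists. Genes with at least 2-fold more loops numbered 214 with a 25 kb window, 85 with a pseudocount of 5, 520 without scaling by list length, 916 without a minimum of loops, 112 with at least 20 loops and 1042 at 1.5-fold. Genes with fewer loops numbered 167, 45, 209, 1314, 104 and 881 under the same settings. Of 506 values for 46 named genes past 2-fold under 11 settings, 4 turned direction: Ccr7 was -0.058 with a 200 kb window and -0.50 with touching pairs merged, and with that merging Ace was -0.23 and Ddx17 -0.036. With touching pairs merged, 10 of the 46 were past 2-fold with at least 10 loops, against 12 with a 25 kb window and 32 to 45 under the other settings. Cul4a and Itga4 were past it in all 11. A kept direction could hide a large move, as for Fam81b, from -1.84 to -0.06 with a 25 kb window. At equal list length 349 genes had more and 370 fewer loops, and 6726 loops were gained and 6376 lost. Leaving out bins that were anchors in 1 list only, and leaving out loops of 500 kb or more, were chosen after seeing the data. The few loops per gene and the lack of a replicate error limit these ratios.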
